A study of Mus musculus with 8 samples.

Results

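The genes described here are the metallothioneins *Mt1*, *Mt2* and *Mt3*, the zinc-sensing transcription factor *Mtf1*, and the zinc transporters *Slc30a1*, *Slc39a10*, *Slc39a8* and *Slc39a14*. They were taken by symbol from a table of RNA-seq expected counts, and are 8 of its 53465 genes. The question put to the table was whether a rise of *Mt1* and *Mt2* came with a rise of other *Mtf1* targets, such as *Slc30a1*. The list was chosen by the higher counts of *Mt1* and *Mt2* in the mutant samples, so the values of this pair are given as a description with no test. The remaining 6 members were named for their role in zinc handling, with earlier results of these data known, and were tested.

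The samples were heart ventricles of mouse embryos at embryonic day 9.5 (E9.5), 4 labelled WT and 4 labelled Nrg-1flox;Tie2-Cre (mutant). In the mutant, floxed *Nrg1*, which encodes a growth factor of the endocardium, was deleted by Cre recombinase under the endothelial driver Tie2. Tie2-Cre is also known to be active in blood cells, and the labels do not say whether the WT embryos carried a floxed allele or Cre. They do not say whether a sample was 1 embryo or a pool, so the p-values measure the spread between these samples only. Each sample had from 11852372 to 14360323 counts. *Nrg1* itself had 59 to 72 counts in the mutant samples and 121 to 173 in WT, a log2 fold change of -1.07 ± 0.14 (SE, n = 4 and 4; edgeR adjusted p = 0.00268), so it was lower in the samples labelled as mutant. Mutant replicate 1 stood apart from the other mutant samples over all genes, with a chi-square per degree of freedom of 30.7 to 52.7 against each of them. The other mutant pairs differed by 4.67 to 14.5 and the WT pairs by 3.77 to 6.14, so each result is given with and without that sample where it bears on a member. Levels are given as CPM, the count relative to library size after TMM scaling between libraries.

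Metallothioneins are small cysteine-rich proteins that hold zinc, copper and cadmium ions. When free zinc rises, Mtf1 binds metal response elements in the promoters of *Mt1* and *Mt2* and of the zinc exporter gene *Slc30a1* and raises their transcription, while *Slc39a10*, an importer gene, is known to be lowered. Slc30a (ZnT) proteins move zinc out of the cytoplasm, and Slc39a (ZIP) proteins move it in.

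The metallothionein genes lie in a cluster on chromosome 8 (GRCm38), all on the plus strand, which spans 43131 bases from the start of *Mt4* to the end of *Mt1*. *Mt2* (ENSMUSG00000031762, 94172664 to 94173568) and *Mt1* (ENSMUSG00000031765, 94179082 to 94180327) have 3 exons and 183 coding bases each and lie 5513 bases apart. The sequences below show where the letters of the metal response element core stand, since these are the letters through which *Mtf1* is known to act. The core was searched as TGCACNC and as TGCGCNC on both strands, and capitals mark each match. The 250 bases before the RefSeq start site (RefSeq, GRCm38.p6) of *Mt1* (chr8:94178839-94179088, plus strand), of *Mt2* (chr8:94172368-94172617, plus strand) and of *Slc30a1* (chr1:191906531-191906780, plus strand) read as follows.
Mt1: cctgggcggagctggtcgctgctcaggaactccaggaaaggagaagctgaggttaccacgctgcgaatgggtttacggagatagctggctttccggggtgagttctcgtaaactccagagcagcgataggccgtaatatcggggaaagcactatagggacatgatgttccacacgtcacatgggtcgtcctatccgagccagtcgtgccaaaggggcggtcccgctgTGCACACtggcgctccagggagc
Mt2: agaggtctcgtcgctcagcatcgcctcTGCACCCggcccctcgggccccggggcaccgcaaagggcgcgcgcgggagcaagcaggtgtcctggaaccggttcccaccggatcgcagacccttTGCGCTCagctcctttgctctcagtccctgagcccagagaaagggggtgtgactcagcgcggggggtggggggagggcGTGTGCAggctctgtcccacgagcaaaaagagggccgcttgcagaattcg
Slc30a1: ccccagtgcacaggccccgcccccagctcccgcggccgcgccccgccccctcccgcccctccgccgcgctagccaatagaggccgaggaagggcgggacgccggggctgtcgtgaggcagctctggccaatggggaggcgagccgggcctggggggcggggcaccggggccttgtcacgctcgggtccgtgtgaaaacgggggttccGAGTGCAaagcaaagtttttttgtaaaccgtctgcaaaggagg

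*Mt1* had 1 match in these 250 bases, *Mt2* 3 and *Slc30a1* 1. With the first 50 bases after the start site included, *Mt1* had 3 matches, *Mt2* 4, *Slc30a1* 2 and *Mt3* 1. *Mtf1* had none, *Slc39a10* had none in its pair of windows, and *Slc39a8* had none in its first window and 1 in its second. A window was given for 7 of the 8 members. Of all 32851 promoter windows of this length, 25.7% held at least 1 match, 7.11% at least 2, 1.97% at least 3 and 0.517% at least 4. With only the 250 bases before the start site counted, 21.4% of windows held at least 1 match, as *Mt1* and *Slc30a1* did, and 1.26% at least 3, as *Mt2* did. *Mt2* thus stood among windows rich in these letters in either window, and *Mt1* only with the 50 bases after the start included.

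In *Mt1*, *Mt2* and *Mt3* the TATA box letters TATAAA lay inside the annotated first exon, 101, 95 and 87 bases before the start codon, so the search was extended to the start codon. Over that stretch *Mt1* (472 bases) held 5 matches, *Mt2* (480 bases) 7, *Mt3* (443 bases) 3 and *Slc30a1* (476 bases) 2. All matches of the 3 metallothionein genes lay before the TATAAA letters. No background share was computed for these longer stretches, so the shares above hold only for the windows set by the RefSeq start site. The sites of *Mt1*, the member with the highest count in any 1 sample (mutant replicate 1), are shown first with 5 bases on either side, at 245, 220, 202, 138 and 124 bases before the start codon.
Mt1 site at 245: cgctgTGCACACtggcg
Mt1 site at 220: agctcTGCACTCcgccc
Mt1 site at 202: aaaagTGCGCTCggctc
Mt1 site at 138: ctgctGGGTGCAaaccc
Mt1 site at 124: cccttTGCGCCCggact

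The *Mt2* sites that lie after the printed promoter, and the second *Slc30a1* site, are shown because they are the other matches of the genes compared below. The *Mt3* sites are shown because *Mt3* carries the letters too.
Mt2 site at 226: gggtcGTGCGCAggccc
Mt2 site at 172: agggcGTGTGCAggcgg
Mt2 site at 153: ggggcGCGTGCAtggtg
Mt2 site at 119: gctttTGCGCTCgaccc
Slc30a1 site at 196: gggccGAGCGCAgtcgc
Mt3 site at 166: agcagTGCACACacacg
Mt3 site at 139: gctgtGCGTGCAtaggg
Mt3 site at 107: ctgctTGCGCGCccccg

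**Figure D1:**
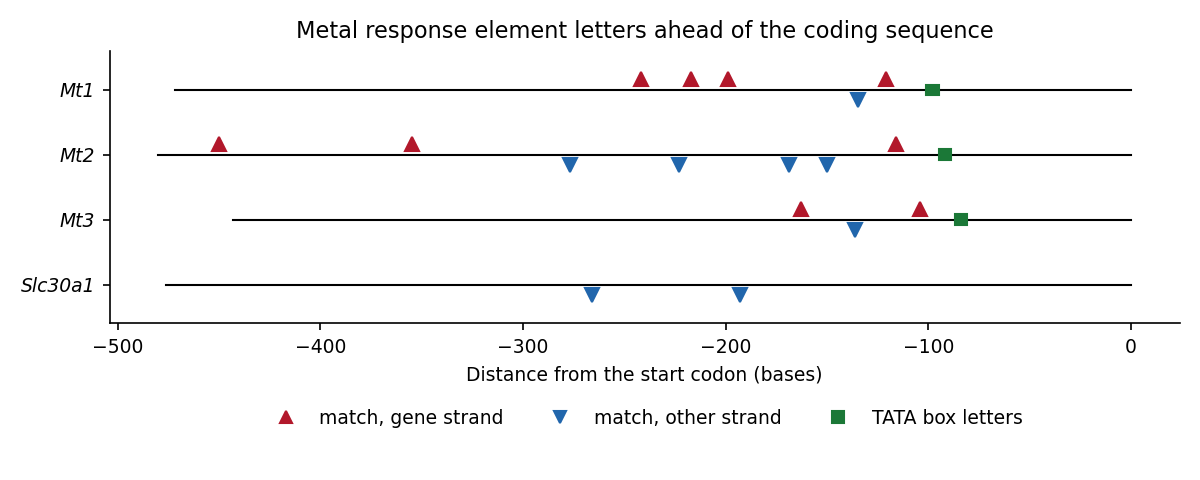
Position of each match to the metal response element core in the stretch from 250 bases before the RefSeq start site to the start codon, in bases before the start codon (x axis), for 4 genes (y axis). Triangles pointing up are matches on the gene strand, triangles pointing down matches on the other strand, and squares the TATAAA letters. The 5 *Mt1*, 7 *Mt2* and 3 *Mt3* matches all lie to the left of TATAAA, and *Slc30a1* has 2 matches and no TATAAA.

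*Mt1* and *Mt2* were higher in every mutant sample than in any WT sample, and mutant replicate 1 stood far above the other 3. *Mt1* had 10546, 984, 1854 and 1473 counts in mutant replicates 1 to 4 and 351, 397, 280 and 272 in WT replicates 1 to 4. In CPM this was 894.2, 71.2, 133.4 and 121.4 against 26.8, 28.4, 23.0 and 18.4. The mutant mean was 305.0 ± 393.7 CPM (SD, n = 4) and the WT mean 24.2 ± 4.47 CPM (SD, n = 4), a ratio of 12.6. Mutant replicate 1 was 8.23 times the mean of the other 3 mutant samples. Without it the mutant mean was 108.7 ± 33.0 CPM (SD, n = 3), a ratio of 4.5 to WT. The fitted log2 fold change of *Mt1* was 3.66 ± 0.77 (SE) with all 4 mutant samples and 2.17 ± 0.2 without replicate 1.

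Among the mutant samples *Mt2* followed the same order, replicate 1 highest, then 3, 4 and 2. Its counts were 8815, 458, 1237 and 957 in the mutant and 286, 254, 172 and 162 in WT. In CPM these were 747.4, 33.2, 89.0 and 78.9 against 21.8, 18.2, 14.1 and 11.0. The lowest mutant sample, replicate 2, was thus above the highest WT sample by less than the spread among the mutant samples. The means were 237.1 ± 341.1 and 16.3 ± 4.75 CPM (SD, n = 4 each), a ratio of 14.6, and 67.0 ± 29.7 CPM (SD, n = 3) without replicate 1, a ratio of 4.12. The fitted log2 fold change was 3.86 ± 0.92 (SE), and 2.04 ± 0.31 without replicate 1. Of all 14451 genes tested, 9.52% had every mutant sample above every WT sample, a share given only as background here because the rule used this contrast.

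The balance between the 2 genes was similar in both genotypes. The ratio of *Mt1* to *Mt2* counts was 1.2, 2.15, 1.5 and 1.54 in the mutant samples (1.6 ± 0.399, SD, n = 4) and 1.23, 1.56, 1.63 and 1.68 in WT (1.52 ± 0.204). The lowest ratios were those of replicate 1 in each group, and the ranges overlapped. *Gm45774* is annotated antisense to *Mt2* (chromosome 8, 94170748 to 94173412, minus strand) and covers 432 of its 588 exonic bases. Without strand, reads from either cannot be told apart, and 39.3% of all 60-base words of *Mt2*, the length of a read, also occur in *Gm45774*. *Gm45774* had 86, 18, 33 and 33 counts in the mutant and 6, 10, 4 and 3 in WT, from 0.976% to 3.94% of the *Mt2* count in the same sample. Summing the pair into 1 gene left the log2 fold change of *Mt2* at 3.85. No 60-base word of *Mt1* was shared with another gene.

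*Mt3*, a metallothionein best known from the brain, was at a low level in both groups. It had 29, 51, 39 and 33 counts in the mutant and 46, 68, 41 and 44 in WT, or 2.46 to 3.69 CPM against 2.97 to 4.87. The ranges overlapped, and the log2 fold change of -0.33 ± 0.21 (SE) did not pass the test (edgeR adjusted p = 0.365, and -0.26 with adjusted p = 0.467 without mutant replicate 1). *Mt4*, best known from squamous epithelium, had 0 counts in all 8 samples and was not tested.

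**Figure D2:**
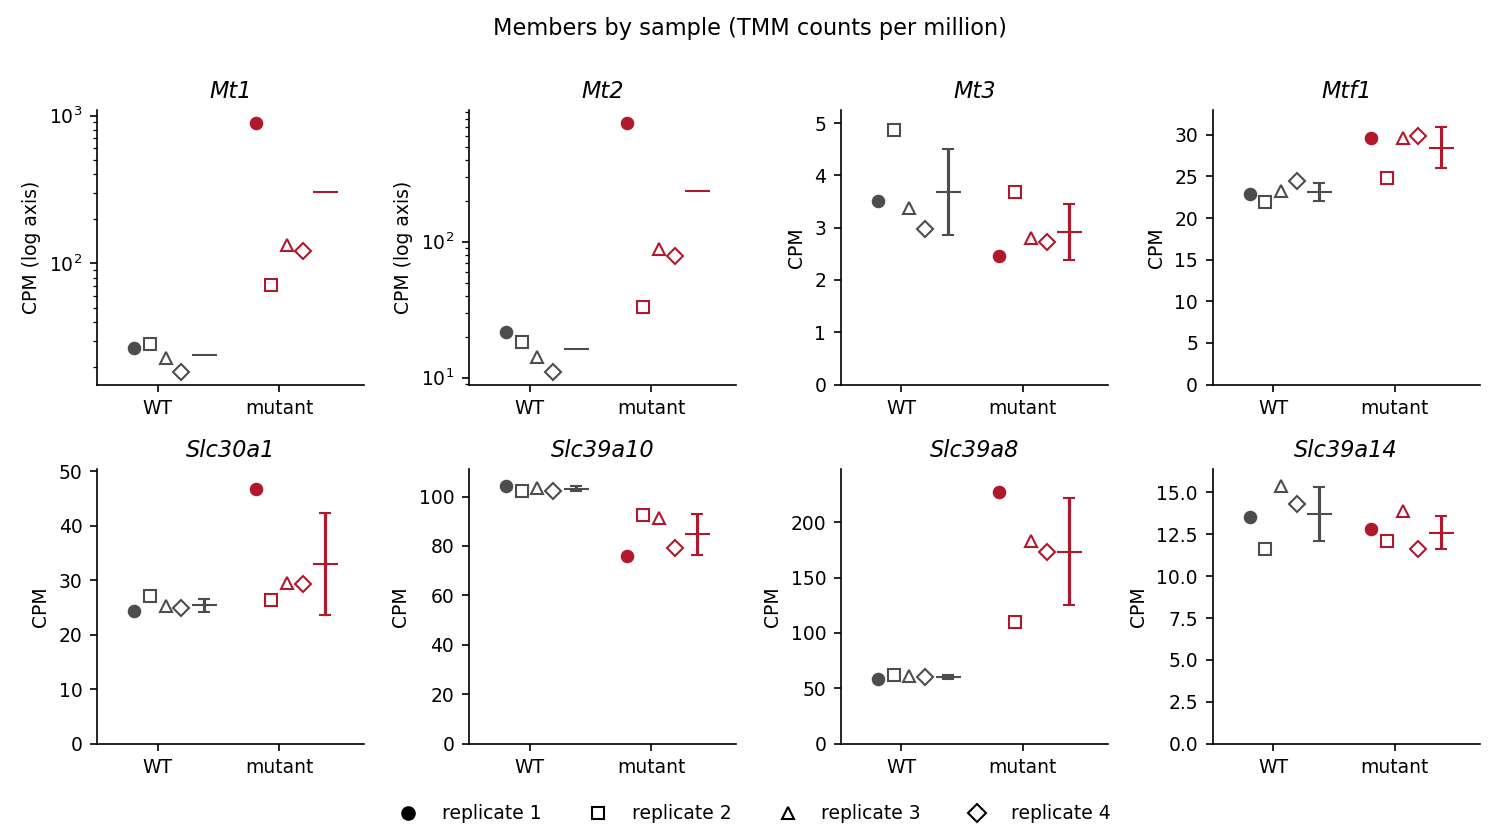
Level of the 8 members in each sample in TMM-scaled CPM (y axis, log scale for *Mt1* and *Mt2*, from 0 for the others), WT in grey and mutant in red, with a symbol for each replicate. The dash is the group mean and, on the linear axes, the bar 1 SD (n = 4). Mutant replicate 1 sits far above the rest in *Mt1* (894.2 CPM) and *Mt2* (747.4 CPM) and also leads in *Slc30a1* and *Slc39a8*.

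Of the 6 members that were tested, 3 passed the threshold (FDR 0.05), *Mtf1* and *Slc39a8* as higher and *Slc39a10* as lower, beside 8.62% of all 14451 genes (5.11% higher and 3.5% lower). The same 3 passed without mutant replicate 1, where 17.2% of 14630 genes did (9.35% higher and 7.89% lower). *Slc30a1* did not pass in either fit.

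*Mtf1* (ENSMUSG00000028890, chromosome 4, 124802104 to 124849800) encodes the factor that senses zinc. It was slightly higher in the mutant, with 29.6, 24.8, 29.6 and 29.9 CPM against 22.9, 21.9, 23.3 and 24.5 in WT. The groups did not overlap, but mutant replicate 2 was within 1 WT SD (1.05 CPM, n = 4) of the highest WT sample. The log2 fold change was 0.30 ± 0.08 (SE; edgeR adjusted p = 0.0486), and 0.28 (adjusted p = 0.0385) without mutant replicate 1. That call was lost when mutant replicate 3 or 4 or any single WT sample was left out (adjusted p = 0.0877 to 0.133), and under 4 other settings given in the closing section. Mutant replicate 1, which led in *Mt1* and *Mt2*, did not stand apart in *Mtf1*.

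*Slc30a1* (ENSMUSG00000037434, chromosome 1, 191906767 to 191913247) encodes the exporter ZnT1 of the plasma membrane, a classical *Mtf1* target. Its counts were 552, 364, 410 and 356 in the mutant and 318, 379, 307 and 369 in WT. In CPM these were 46.8, 26.4, 29.5 and 29.3 against 24.3, 27.1, 25.2 and 24.9. Mutant replicate 1 was the one sample well above the others, replicates 3 and 4 were a little above the WT range, and replicate 2 lay within it. The log2 fold change was 0.37 ± 0.16 (SE) and did not pass the test (edgeR adjusted p = 0.185). Without replicate 1 it was 0.16 ± 0.07 (adjusted p = 0.136), from 28.4 ± 1.77 CPM (SD, n = 3) against 25.4 ± 1.23 CPM (SD, n = 4), a ratio of 1.12. A rise of *Slc30a1* beside that of *Mt1* and *Mt2* was therefore not shown by the test, and in mutant replicate 1 *Slc30a1* was 1.84 times the WT mean where *Mt1* was 37.0 times and *Mt2* 45.9 times. Between 7.4% and 7.8% of the 60-base words of *Mtf1* and *Slc30a1* also occur in an annotated gene on the opposite strand.

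*Slc39a8* showed the clearest rise among the importers. It encodes ZIP8, which carries manganese as well as zinc (ENSMUSG00000053897, chromosome 3, 135825279 to 135888572). Its counts were 2683, 1524, 2545 and 2099 in the mutant against 765, 861, 747 and 884 in WT, or 227.5, 110.3, 183.1 and 173.0 CPM against 58.4, 61.7, 61.4 and 59.8. Every mutant sample was well above the WT range, which was narrow. The mutant mean was 173.5 ± 48.3 CPM and the WT mean 60.3 ± 1.51 CPM (SD, n = 4 each), a ratio of 2.88, and 2.58 without replicate 1. The log2 fold change was 1.52 ± 0.18 (SE; edgeR adjusted p = 0.00185), and 1.37 ± 0.14 (adjusted p = 0.000363) without replicate 1. The call held in each of the settings tried. Its order among the mutant samples, replicate 1 highest, then 3, 4 and 2, was that of *Mt1*, *Mt2* and *Slc30a1*. The share of all genes with this order was not counted, and in *Slc30a1* replicates 3 and 4 were nearly equal (29.5 and 29.3 CPM).

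*Slc39a10* (ENSMUSG00000025986, chromosome 1, 46807544 to 46892852, minus strand) encodes ZIP10, a zinc importer of the plasma membrane. It was lower in every mutant sample, at 76.1, 92.6, 91.2 and 79.0 CPM against 104.3, 102.3, 103.5 and 102.4 in WT. Replicate 1 was the lowest, next to replicate 4. Of all genes, 9.45% had every mutant sample below every WT sample. The log2 fold change was -0.28 ± 0.07 (SE; edgeR adjusted p = 0.0397), and -0.23 ± 0.06 (adjusted p = 0.0234) without mutant replicate 1. The call was lost when mutant replicate 4 or any single WT sample was left out (adjusted p = 0.0891 to 0.117). It was also lost with the replicate number as a block (edgeR adjusted p = 0.0882).

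*Slc39a14* (ENSMUSG00000022094, chromosome 14, 70303469 to 70351425, minus strand) encodes ZIP14, which carries zinc, manganese and iron. Its values were 12.8, 12.1, 13.9 and 11.6 CPM in the mutant and 13.5, 11.6, 15.4 and 14.3 in WT, and they overlapped. It gave a log2 fold change of -0.12 ± 0.11 (SE; edgeR adjusted p = 0.55), and -0.13 ± 0.12 (adjusted p = 0.504) without mutant replicate 1.

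The members were expressed at different levels before any comparison. Per kilobase of transcript, the WT level was 44.0 ± 8.15 CPM for *Mt1* and 31.9 ± 9.29 for *Mt2* (SD, n = 4 each). *Slc39a8* and *Slc39a10* followed at 18.8 ± 0.473 and 18.8 ± 0.177, then *Mt3* at 6.87 ± 1.54 and *Slc39a14* at 6.53 ± 0.759. *Slc30a1* was at 4.84 ± 0.234 and *Mtf1* lowest at 3.03 ± 0.138. The WT ranges overlapped within the pairs *Mt1* and *Mt2*, *Slc39a8* and *Slc39a10*, and *Mt3* and *Slc39a14*, and the remaining neighbours in this order did not overlap. The length used was that of a single annotated transcript per gene, while the counts cover all its transcripts. All annotated exons together were longer in several members, with 1246 against 549 bases for *Mt1* and 10550 against 2098 for *Slc39a14*. The order therefore depends on the length chosen.

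Beyond the members, the zinc transporter families were counted in the same fit, in which 8.62% of all genes passed. Of the 24 ZnT and ZIP genes, 20 were tested, 16 of them not members. Of these 16 *Slc30a10* passed, a share near that of all genes, and the other 15 had log2 fold changes from -0.23 to 0.25. Over the whole families, 1 of 9 tested ZnT genes passed, as higher (median log2 fold change -0.000184), and 1 of 11 tested ZIP genes rose and 1 fell (median -0.08), beside a median of -0.0014 over all genes. *Slc30a10* encodes a transporter best known for manganese export. It had 959, 351, 507 and 531 counts in the mutant and 102, 158, 162 and 146 in WT, or 81.3, 25.4, 36.5 and 43.8 CPM against 7.79, 11.3, 13.3 and 9.87. No mutant sample overlapped WT, and replicate 1 was again the highest and replicate 2 the lowest. Its log2 fold change was 2.14 ± 0.33 (SE; edgeR adjusted p = 0.00471), and 1.74 ± 0.2 (adjusted p = 0.000509) without mutant replicate 1. The RefSeq window of *Slc30a10* held 3 matches to the core, of which 2 overlapped.

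Other genes that have been described as *Mtf1*-responsive were counted in the same way, beside 8.62% of all genes. Of 9 such genes outside the metallothioneins, *Selenow* rose, *Slc39a10* fell and the other 7 did not pass, *Slc30a1* among them. The median log2 fold change of the 9 was 0.37, and 0.16 without mutant replicate 1. *Selenow*, which encodes a small selenoprotein, was at 215.7, 179.6, 227.6 and 216.1 CPM in the mutant and 162.4, 170.1, 157.4 and 152.6 in WT. Its log2 fold change was 0.39 ± 0.08 (SE; edgeR adjusted p = 0.015), and 0.37 (adjusted p = 0.00925) without mutant replicate 1. That call was lost without WT replicate 1, 3 or 4 (adjusted p = 0.0534 to 0.0583), and with the replicate number as a block (edgeR adjusted p = 0.0604).

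Without mutant replicate 1, 3 of the 9 passed as higher and 1 as lower, beside 17.2% of all genes, the added genes being *Gclc*, for the enzyme that starts glutathione synthesis, and *Slc40a1*, the iron exporter ferroportin. These genes, and *Ndrg1* below, were chosen after their values were seen. *Gclc* had a log2 fold change of 0.38 ± 0.11 (SE; edgeR adjusted p = 0.0537) with all samples and 0.26 (adjusted p = 0.0171) without replicate 1. *Slc40a1* had 1.46 ± 0.44 (adjusted p = 0.0679) and 0.82 ± 0.23 (adjusted p = 0.0346). *Ndrg1*, which also responds to low oxygen, had 1492, 145, 89 and 56 counts in the mutant and 53 to 66 in WT, with replicate 1 at 17.6 times the mean of the other 3 mutant samples. Its log2 fold change of 3.12 ± 1.04 did not pass (adjusted p = 0.0956). In mutant replicate 1 the median of the 9 genes was 0.69 above the WT mean on the log2 scale, and in replicates 2, 3 and 4 it was 0.05, 0.22 and 0.14 above.

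**Figure D3:**
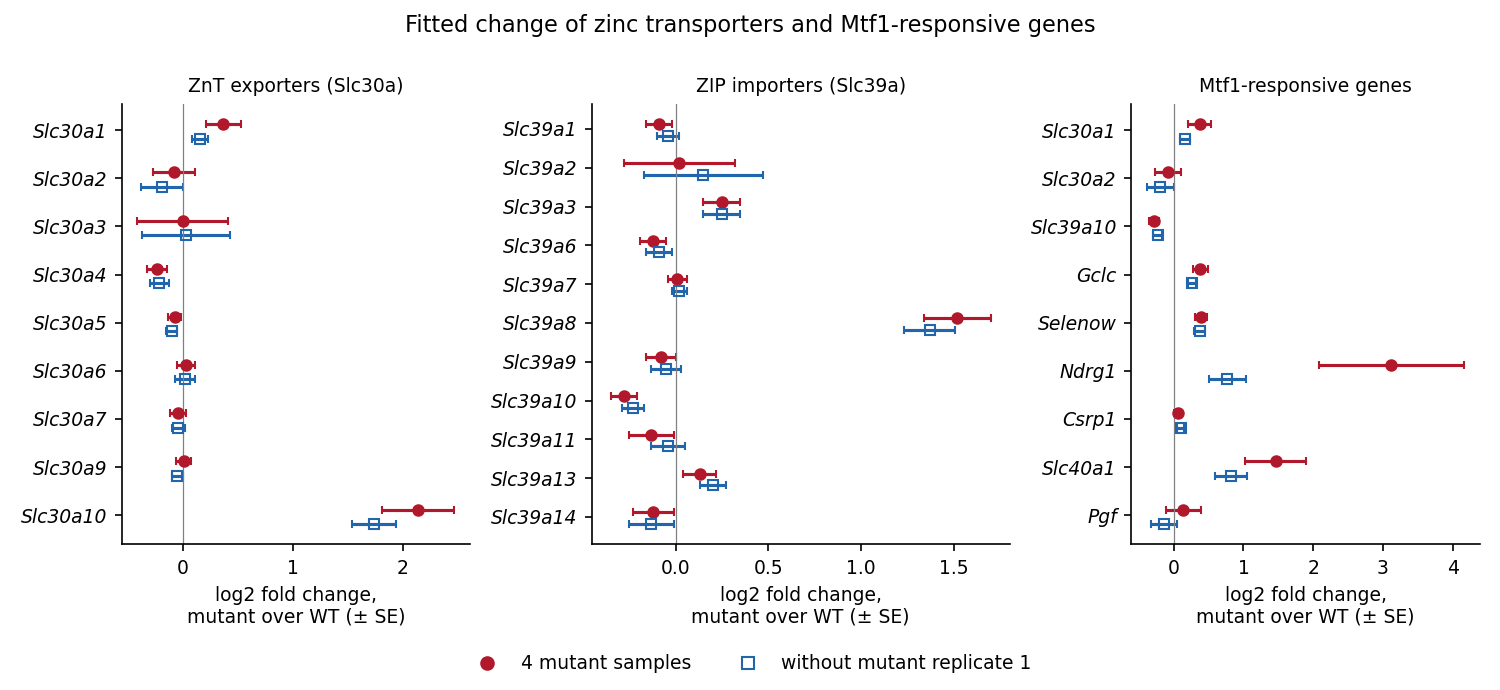
Fitted log2 fold change of the mutant over WT (x axis, bar 1 SE) for each tested ZnT gene, ZIP gene and *Mtf1*-responsive gene, with all 4 mutant samples (red circles) and without mutant replicate 1 (open blue squares). *Slc30a10* (2.14) and *Slc39a8* (1.52) lie far to the right in both fits, *Slc30a1* moves from 0.37 to 0.16, and *Ndrg1* moves from 3.12 to 0.77.

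Metallothionein genes also respond to copper, oxidants, heat shock, glucocorticoids and low oxygen, and lists of genes for these were counted in the same fit, where 5.11% of all genes passed as higher and 3.5% as lower. Each list holds 8 or 10 genes, and its count was not tested against that share. Of 10 copper-handling genes 1 rose, *Steap3*, a metalloreductase best known for iron uptake in red cell precursors (log2 fold change 1.48, edgeR adjusted p = 0.0036). Of 10 Nrf2 targets 2 rose, *Nqo1* (1.47, adjusted p = 0.0484) and *G6pdx* (0.33, adjusted p = 0.0428), and without mutant replicate 1, where 17.2% of all genes passed, 4 rose and 1 fell. Of 10 heat shock genes 1 passed, the mitochondrial chaperone gene *Hspd1*, which fell (-0.19, adjusted p = 0.0337). Of 8 glucocorticoid-responsive genes, *Cdkn1a* rose (0.72, adjusted p = 0.0397) and *Tsc22d3*, a standard glucocorticoid target, fell (-0.51, adjusted p = 0.00251). Of 10 hypoxia-responsive genes 1 rose, the glucose transporter gene *Slc2a1* (0.54, adjusted p = 0.0133). The calls of *Steap3* and *Tsc22d3* held whichever sample was left out. Those of *Nqo1* and *G6pdx* were lost without mutant replicate 3 or 4 or any WT sample (adjusted p = 0.0567 to 0.134), that of *Cdkn1a* without mutant replicate 4 or any WT sample (0.08 to 0.12), that of *Hspd1* without any sample but mutant replicate 1 (0.0689 to 0.107) and that of *Slc2a1* without WT replicate 1 or 4 (0.052 to 0.0548).

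Mutant replicate 1, the sample with most *Mt1* and *Mt2*, also differed from the other mutant samples in the hypoxia and Nrf2 lists and in a pair of heat shock genes. All 10 hypoxia-responsive genes were higher there than in any other mutant sample, against 5425 of 14449 gene symbols in all. Their median was 2.11 above the WT mean on the log2 scale in replicate 1, and 0.44, 0.06 and 0.04 above in replicates 2, 3 and 4. For the Nrf2 targets the medians were 0.98, 0.2, 0.25 and 0.19. The heat shock list as a whole had medians of -0.03, -0.08, -0.05 and -0.07, but its stress-inducible Hsp70 genes, named after their values were seen, were far higher in replicate 1. *Hspa1a* had 414 counts there, 18, 33 and 54 in mutant replicates 2 to 4 and between 17 and 21 in the WT samples (log2 fold change 2.9, edgeR adjusted p = 0.0978, and 0.9 with adjusted p = 0.123 without replicate 1). *Hspa1b*, a near-identical copy whose reads are hard to assign, had 655 counts there, 60, 36 and 17 in mutant replicates 2 to 4 and between 30 and 54 in the WT samples (2.32, adjusted p = 0.197, and -0.17 with adjusted p = 0.78 without replicate 1). The part of these genes' changes in the level of *Mt1* and *Mt2* was not tested.

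**Figure D4:**
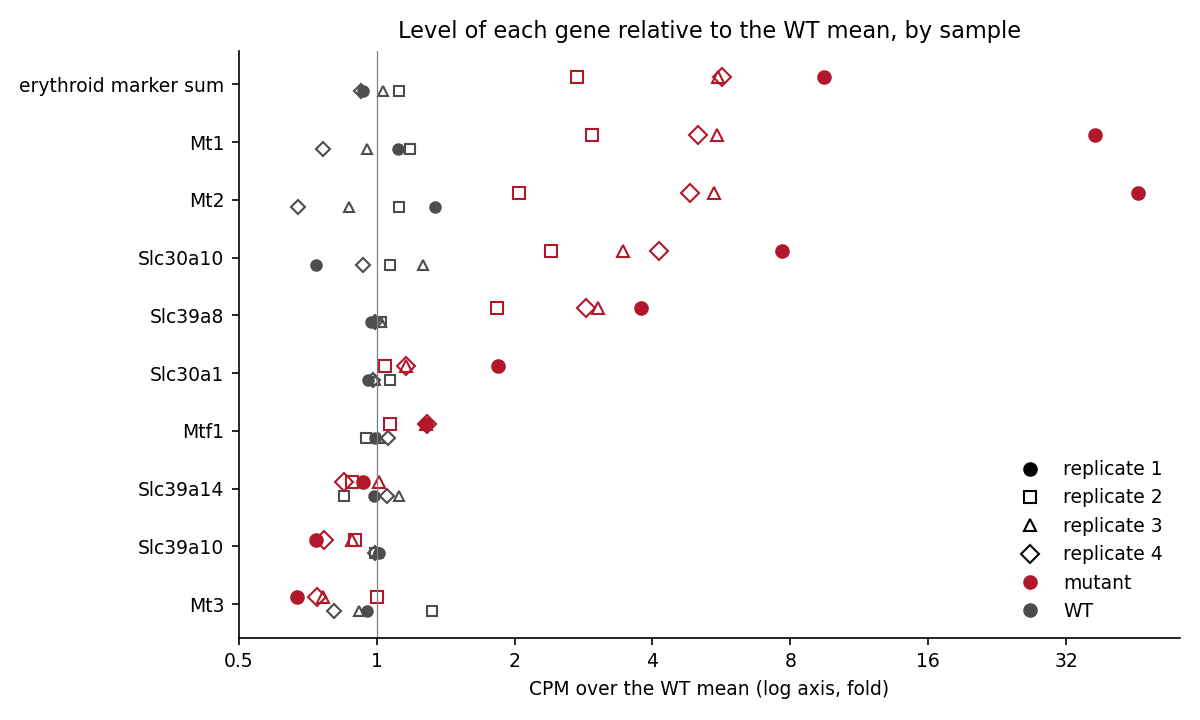
CPM of each member, of *Slc30a10* and of the summed erythroid markers, as a multiple of the WT mean (x axis, log scale), for each WT (grey) and mutant (red) sample, with a symbol for each replicate. Mutant replicate 1 reaches 37.0 for *Mt1* and 45.9 for *Mt2*, beyond the 9.48 of the erythroid sum, while the other mutant samples lie from 2.04 to 5.52 for these genes.

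Markers of red cell precursors moved with the genotype in the same samples. The summed CPM of 11 erythroid markers, all of which passed as higher, was from 19860.3 to 68758.2 in the mutant and from 6702.4 to 8104.6 in WT. This was a ratio of 5.86 between the means, and 4.66 without replicate 1. Bulk RNA cannot tell more cells of a type from more RNA per cell. *Mt1* per 1000 CPM of erythroid markers was 3.59, 3.31 and 2.94 CPM in mutant replicates 2, 3 and 4, inside the WT range of 2.74 to 3.97. In mutant replicate 1 it was 13.0. *Mt2* behaved alike, with 1.67, 2.21 and 1.91 in these 3 samples against 1.63 to 3.23 in WT, and with 10.9 in replicate 1.

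So in mutant replicates 2 to 4 *Mt1* and *Mt2* stood in the WT proportion to the erythroid markers, and in replicate 1 they stood above it. *Slc30a10* per 1000 CPM of erythroid markers was from 0.906 to 1.28 CPM in the mutant and from 1.15 to 1.78 in WT, so the ranges overlapped. *Slc39a8* was from 3.31 to 5.56 in the mutant and from 7.61 to 8.92 in WT, so it rose less than the erythroid sum did. The part of erythroid cells in these results was not tested.

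**Figure D5:**
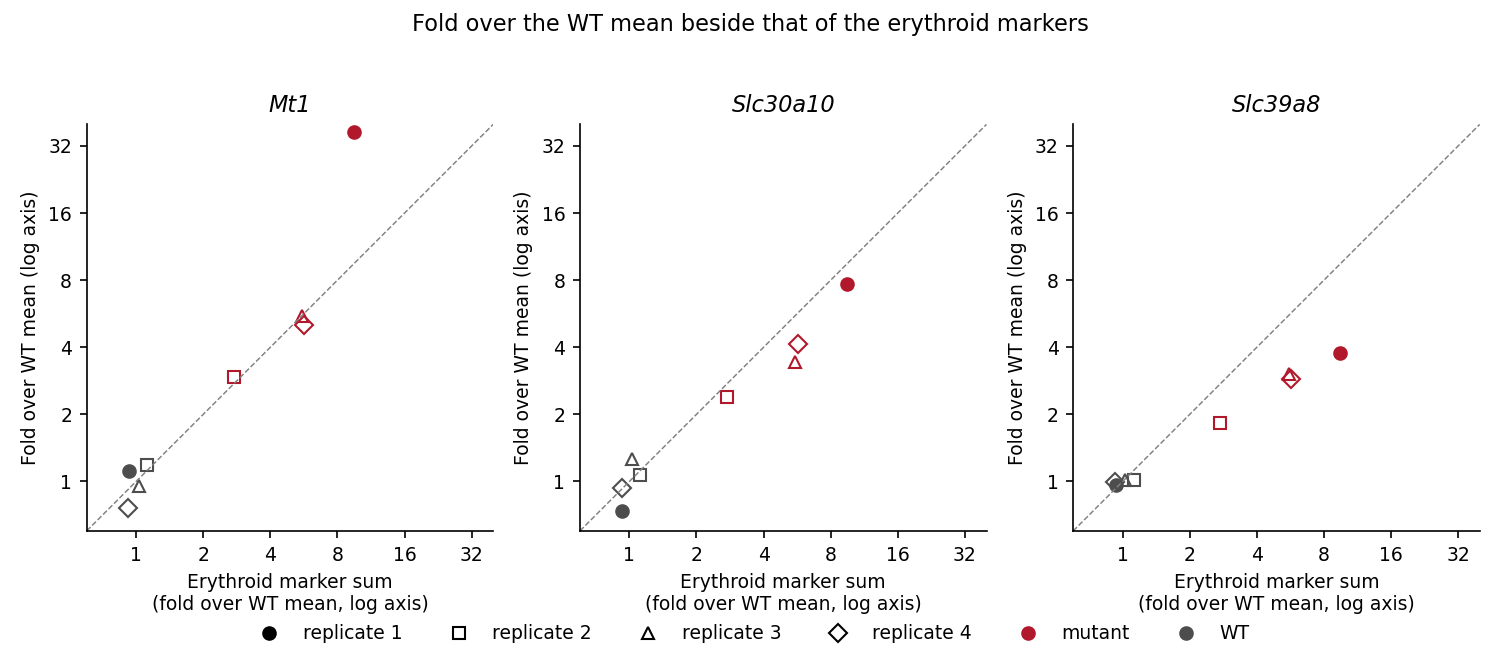
Multiple of the WT mean of *Mt1*, *Slc30a10* and *Slc39a8* (y axes, log scale) against that of the summed erythroid markers (x axes, log scale), for each of the 8 samples, with WT in grey and mutant in red. The dashed line marks equal multiples. Mutant replicates 2 to 4 lie near the line for *Mt1*, replicate 1 lies far above it at 37.0 against 9.48, and *Slc39a8* lies below it in every mutant sample.

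Other cell type markers moved less. The summed CPM of 10 cardiomyocyte markers overlapped between the genotypes (ratio 0.971), with log2 fold changes of the single genes from -0.25 to 0.09. It was at least 32456.6 CPM in every sample, so markers of the labelled tissue were abundant in both groups. The median of the single markers differed from the WT mean by -0.34 on the log2 scale in mutant replicate 1, against 0.00686, -0.04 and 0.00882 in replicates 2, 3 and 4. *Nkx2-5* had 1953 counts in replicate 1 and 3079 to 3827 in the other 3, and *Tnni1* 10032 against 14342 to 16666, while *Myh7* was highest there of the mutant samples (132421 against 102557 to 117728). These 3 genes were named after their values were seen, and the part of this difference in the level of *Mt1* and *Mt2* was not tested. For 9 endocardial and endothelial markers the sum was 704.9 to 777.9 CPM in the mutant and 819.0 to 901.3 in WT, with 1 lower call, *Tek*. For 6 epicardial markers it was 198.4 to 331.1 against 127.7 to 195.1, with 2 higher calls, *Wt1* and *Tbx18*, and for 6 macrophage markers it was 8.56 to 11.7 against 5.59 to 6.22, with 1 higher call of 3 tested, *Csf1r*. Visceral endoderm and liver express metallothioneins strongly, and 4 of their 12 markers had enough counts to be tested, with log2 fold changes from -0.43 to 1.08 and the lowest adjusted p at 0.148 (*Trf*, named after its value was seen). The summed CPM of the 12 was 7.7 to 15.6 in the mutant and 5.95 to 9.17 in WT, so the ranges overlapped, with replicate 1 the highest. *Afp*, the yolk sac and fetal liver protein alpha-fetoprotein, had 63 and 32 counts in mutant replicates 1 and 2, 2 and 0 in replicates 3 and 4, and 1 to 4 in WT. *Fgb* had 6 counts in mutant replicate 1 and at most 1 elsewhere, and *Alb* had 4 counts there and at most 2 elsewhere. These 3 genes, named after their values were seen, had too few counts to be tested, and their part in the level of *Mt1* and *Mt2* in mutant replicate 1 was not tested.

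The genes most like *Mt1* were found from the root mean square difference of log2 CPM, after the WT mean of each gene was subtracted. Over the 8 samples these were *Mt2* (0.248), *Gm45774* (0.557), *Csf2rb2* (0.591), and the globin genes *Hbq1b* (0.625) and *Hbb-y* (0.699). *Csf2rb2* is a close copy of *Csf2rb*, so the split of reads between them is uncertain. Over the 7 samples without mutant replicate 1 the order changed, and the nearest, named after their values were seen, were *Trib3* (0.127), *Slc4a1* (0.136), the anion exchanger of red cells, *Tfr2* (0.139), *Csf2rb* (0.14) and *Acp5* (0.141), with *Mt2* in place 25. These samples share libraries, so likeness is a description of them only.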

How the data were processed

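Polyadenylated RNA of heart ventricles from 4 WT and 4 mutant embryo samples was sequenced in single reads of 60 bases. Per the labels, the libraries were made with the NEBNext Ultra RNA kit, whose name does not mark it as directional. The authors deposited 1 table of expected counts per gene and sample, not scaled for library size or gene length. The submitters' processing notes name cutadapt, RSEM 1.3.1 and the build GRCm38; the aligner and the strand setting are not given in the sources used here. Because RSEM divides a read with several matching genes between those genes, counts of overlapping genes are uncertain.

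These values were rounded to integers. Symbols were matched for 53274 of 53465 gene IDs. Genes were tested with edgeR 4.0.16 (R 4.3.3; limma 3.58.1) by the quasi-likelihood test with TMM scaling and the filterByExpr filter, which kept 14451 genes, and p-values were adjusted across these genes by the Benjamini-Hochberg method (FDR 0.05). The standard error is the log2 fold change over the square root of the F statistic. The members and gene lists were chosen with earlier results of these data known. The text names all 8 members, every gene of the metallothionein, ZnT, ZIP and *Mtf1*-responsive lists that passed, up to 4 genes that passed from each other list, the 5 genes nearest to *Mt1*, *Gm45774* and *Nrg1*, with exceptions marked where they stand. No 2 samples of a group agreed within sampling noise (lowest chi-square per degree of freedom 3.77). On simulated counts of 14451 genes with 200 changed, the test recovered 96.5% with 14 false calls. The changed genes were well counted, and their changes were larger than those of *Mtf1*, *Slc39a10* and *Slc30a1*. No simulated sample was made to stand apart, so the 96.5% does not measure how well changes as small as theirs are found. Promoter windows came from RefSeq (GRCm38.p6), and gene positions, transcript lengths and 60-base words from GENCODE M21 (GRCm38), searched with Python 3.11.15. The alternatives were DESeq2 1.42.0, limma-voom, upper-quartile scaling, other filters, removal of 12 hemoglobin genes, a replicate block, each sample left out in turn, *Mt2* and *Gm45774* summed, and a promoter window of the 250 bases before the start only.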

Additional observations from a re-analysis of the deposited data

Results flagged for a closer look

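In groups of 4 samples, a sample was marked where its gap to the nearest other sample was too large a share of the group's whole range by Dixon's 95% limit. Of 56 groups examined, 8 held such a sample, and in 5 of these it was mutant replicate 1. Chance marks about 1 in 20 groups, but the number here is not set against it, because *Mt1*, *Mt2* and *Ndrg1* were looked at with their values known.

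In *Mt1* and *Mt2* the gap of mutant replicate 1, the highest, was 0.925 and 0.922 of the range. These values are a description with no test, since the members were chosen with this sample's counts of the pair known. Replicate 1 was also the highest in *Slc30a1* (0.847), with 46.8 CPM against 26.4 to 29.5 in the other mutant samples. *Ndrg1* (0.952) and *Nqo1* (0.917) were further genes in which it stood apart, *Ndrg1* at 126.5 CPM against 4.62 to 10.5 and *Nqo1* at 4.15 CPM against 1.51 to 1.73.

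*Mtf1* was lowest in mutant replicate 2 (0.936), at 24.8 CPM against 29.6 to 29.9 in the others. In WT, *Nqo1* was highest in replicate 4 (0.861), at 1.08 CPM against 0.657 to 0.716. The summed endocardial and endothelial markers were lowest in mutant replicate 3 (0.836), at 704.9 CPM against 766.0 to 777.9.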

How the results depend on the processing

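No direction of a member was reversed under the alternatives run. The log2 fold change of *Mt1* was 2.90 with limma-voom, and that of *Mt2* 2.85. *Mtf1* was no longer past the threshold with limma-voom (0.29, adjusted p = 0.0605), upper-quartile scaling (0.28, adjusted p = 0.0549) or no filter (0.30, adjusted p = 0.0933). Of the 9 *Mtf1*-responsive genes, 4 passed with DESeq2 and 5 with no filter, against 2 in the reported edgeR fit; *Gclc* and *Slc40a1* passed as higher in both, and *Ndrg1* with no filter. *Slc39a8* and *Slc30a10* passed in each setting run. With the promoter window kept to the bases before the start site, *Mt1* had 1 match in place of 3, which 21.4% of windows reach, and *Mt2* 3 in place of 4, which 1.26% reach. Of the 10 Nrf2 targets, 5 passed with DESeq2, 1 with upper-quartile scaling and 0 with limma-voom, against 2 in the edgeR fit. *Nqo1*, *G6pdx* and *Cdkn1a* were not past the threshold with limma-voom (adjusted p = 0.0656, 0.0509 and 0.0574), nor *G6pdx* (0.0642) and *Hspd1* (0.0796) with no filter. The cause of these differences was not tested.

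Leaving out 1 sample at a time gave log2 fold changes of 2.17 to 3.99 for *Mt1*, 2.04 to 4.23 for *Mt2*, 0.27 to 0.37 for *Mtf1*, 0.16 to 0.48 for *Slc30a1*, -0.32 to -0.23 for *Slc39a10* and 1.37 to 1.7 for *Slc39a8*. Genes called ranged from 509 to 2523, the most without mutant replicate 1, against 1245 with all samples. The ZIP genes called were 1 to 2, and the *Mtf1*-responsive genes called 0 to 4.

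Samples with the same replicate number in both genotypes did not deviate together, with correlations from -0.0911 to 0.0187. Samples with different numbers gave correlations from -0.0745 to 0.0635. A pairing by number was thus not seen, but these values cannot exclude a shared litter or batch. With the number as a block, 616 genes were called, and the log2 fold changes were 2.89 for *Mt1*, 2.89 for *Mt2*, 0.30 for *Mtf1* (adjusted p = 0.0819), -0.29 for *Slc39a10* (adjusted p = 0.0882) and 0.38 for *Selenow* (adjusted p = 0.0604). In that block fit 1 ZIP gene, 0 *Mtf1*-responsive genes and 0 Nrf2 targets were called, and *Nqo1*, *G6pdx*, *Cdkn1a* and *Hspd1* were past the threshold no longer (adjusted p = 0.0867, 0.0971, 0.0853 and 0.0925).

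Counts limit the low genes most, with 29 to 68 counts a sample for *Mt3* and 3 to 86 for *Gm45774*.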
